A study of Mus musculus with 76 samples.

Results

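Long noncoding RNAs that are retained mainly in the nucleus were measured in single neurons of the *Pomc* lineage whose content had been drawn into a patch pipette. The 7 genes *Malat1*, *Neat1*, *Meg3*, *Snhg11*, *Miat*, *Kcnq1ot1* and *Firre* were chosen by name, with their counts per 1000000 (CPM) and their share of cells with a count already known from these cells, as RNAs that could show whether the nucleus was taken up. Because they were selected on those values, the levels below are a description and no test was run on them. They were 7 of the 56980 genes in the count table. Each of the 7 reached 5 counts in 3 or more cells.

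The study asked how neurons of the *Pomc* lineage that carry little *Pomc* product, called Ghost neurons, relate to typical Pomc+ neurons in mice made obese by diet. Male reporter mice carried a tamoxifen-inducible Cre under *Pomc* control (Pomc CreERT2), a Cre-dependent tdTomato reporter that marks the lineage, and, by 1 description of the line, an eGFP transgene driven by the *Pomc* promoter (Pomc-eGFP), while another description of the same recordings leaves the eGFP transgene out. The mice received tamoxifen at the age of 12 weeks and 2 weeks later were kept on chow (CD) or changed to high-fat diet (HFD) for 6 months before hypothalamic slices were recorded. Each traced neuron was called Pomc+ or Ghost from the presence or absence of eGFP fluorescence, so the label rests on a transgene and on when Cre was active, not on the transcriptome. There were 23 Pomc+ cells on CD, 15 Ghost cells on CD, 19 Pomc+ cells on HFD and 19 Ghost cells on HFD. The 76 cells came from 5 mice per diet in 3 experiments, and no mouse is named for any cell, so cells that share a mouse cannot be identified. Each combination of label and diet therefore counts as 1 sample, and differences between the groups have no replicate check, p-value or standard error. Intervals below are at 95%, exact Clopper-Pearson for shares of cells and exact Poisson for summed counts, and cover counting error only, not the spread between mice.

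The total count per cell ran from 4057 to 1452605 with a median of 322652, and the number of genes with a count from 548 to 9808 with a median of 2670.5. Pomc+ cells had a median of 2933 genes and Ghost cells a median of 2615.5, but by diet the order differed, at 2540 and 3199 on CD and 3501 and 2453 on HFD. *Pomc* had a count in 73 of 76 cells, and its mean CPM in Ghost cells was 0.610 times that in Pomc+ cells, at 0.540 times on CD and 1.08 times on HFD. On HFD the eGFP label thus did not go with a lower mean of *Pomc*. *Cartpt* was lower in Ghost cells throughout, at 0.758 times over both diets, 0.757 on CD and 0.844 on HFD.

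Noncoding RNAs of this kind act where they are made. *Malat1* collects in nuclear speckles, the stores of splicing factors, and *Neat1* is the scaffold around which paraspeckles are built, while *Kcnq1ot1* and *Meg3* belong to imprinted domains and *Firre* holds chromatin of its own locus at defined places in the nucleus. A patch pipette that takes up cytoplasm alone would carry few of these RNAs, whereas a pipette that also draws in the nucleus, or a nucleus that ruptures, would carry many.

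The share of cells with a count separated the members into a frequent and a rare set. *Malat1* had a count in 64 of 76 cells (84.2%, interval 74.04 to 91.6), *Meg3* in 56 (73.7%, 62.3 to 83.1) and *Snhg11* in 50 (65.8%, 54.01 to 76.3). *Miat* and *Kcnq1ot1* were each counted in 19 cells (25%, 15.8 to 36.3), *Firre* in 15 (19.7%, 11.5 to 30.5) and *Neat1* in 7 (9.21%, 3.78 to 18.1). Detection depends on depth, and with every cell thinned to 40000 counts, which leaves 68 cells, the shares were 77.9% for *Malat1*, 66.2% for *Meg3*, 63.2% for *Snhg11* and 8.82% for *Neat1*. Per kilobase of exon, the mean over all cells was 283 CPM for *Snhg11*, 101 CPM for *Malat1* and 88.1 CPM for *Meg3*, against 7.08 for *Miat*, 6.29 for *Firre*, 0.818 for *Kcnq1ot1* and 0.581 for *Neat1*. The 3 frequent members were therefore also the most abundant per length, and *Neat1*, the longest exon after that of *Kcnq1ot1*, was the lowest.

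The median cell spent 0.0501% of its counts on the 7 RNAs together. The highest share was 4.73%, in cell 670 (Pomc+ HFD), followed by 3.42% in cell 638 (Pomc+ HFD), 3.03% in cell 654 (Pomc+ HFD), 2.97% in cell 637 (Ghost HFD), 2.78% in cell 709 (Ghost CD) and 2.73% in cell 632 (Pomc+ CD). All 4 groups thus held at least 1 cell among these 6. The 10 cells with most of a given RNA held 69.9% of the summed CPM of *Malat1*, 73.3% of that of *Meg3*, 74.8% of that of *Snhg11* and 96.8% of that of *Kcnq1ot1*, so every mean below leans on a few cells.

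**Figure D1:**
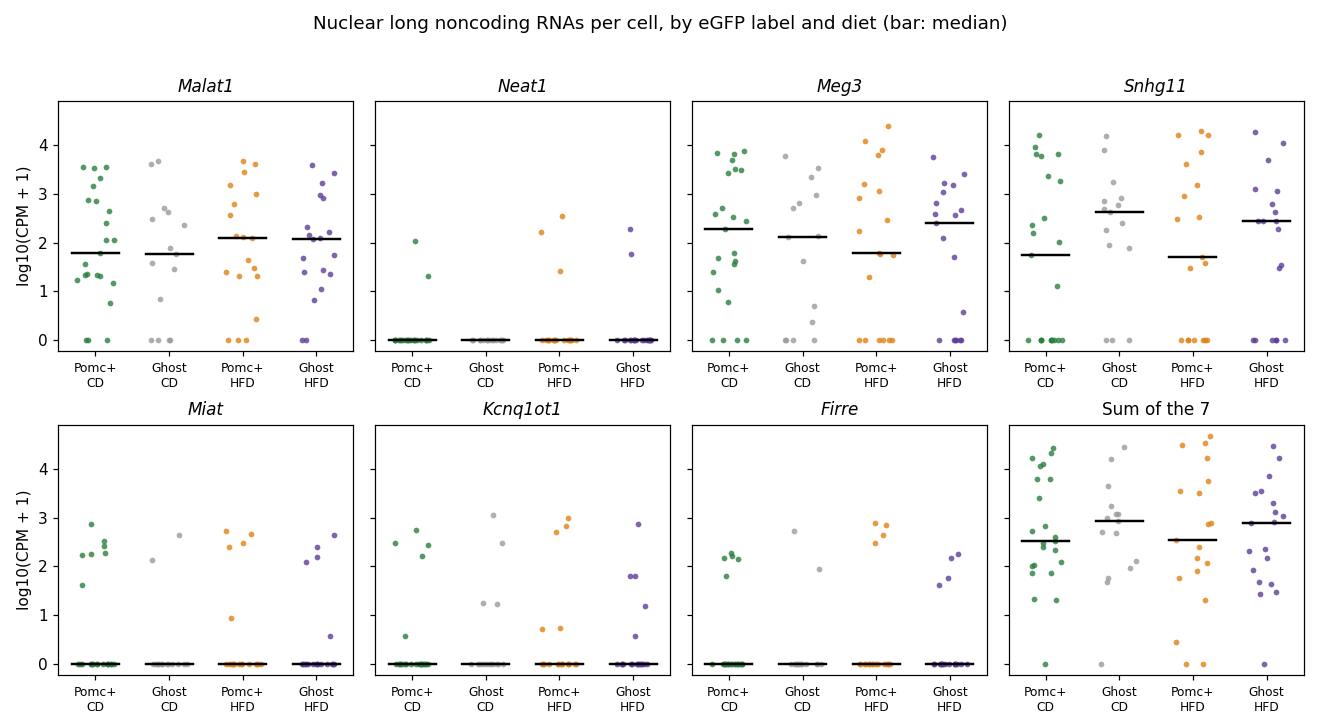
Levels of the 7 RNAs and of their sum in each cell, as log10(CPM + 1) on the vertical axis, for the 4 combinations of eGFP label and diet; each point is 1 cell and the bar is the group's median. Every group spans from 0 to its highest cells in every panel except *Neat1*, which has no count in the 15 Ghost CD cells, and the groups overlap.

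*Malat1* and *Neat1* are neighbours on chromosome 19, 22.04 kb apart and transcribed from the same strand. *Malat1* (ENSMUSG00000092341, chr19:5795690-5802672, minus strand, GRCm38) was counted in 20 of 23 Pomc+ CD, 11 of 15 Ghost CD, 16 of 19 Pomc+ HFD and 17 of 19 Ghost HFD cells. Its lowest CPM was 0 in every group, and its highest was 3584 in Pomc+ CD (median 60.4), 4738 in Ghost CD (median 56.7), 4733 in Pomc+ HFD (median 126) and 3868 in Ghost HFD cells (median 117). The medians were low in all 4 groups beside the highest cells, and the ranges overlapped almost fully. *Neat1* (ENSMUSG00000092274, chr19:5824708-5845478, minus strand) was counted in 2 Pomc+ CD cells, 3 Pomc+ HFD cells, 2 Ghost HFD cells and none of the 15 Ghost CD cells (0%, interval up to 21.8), an interval that leaves out their depth. Its highest values were 356 CPM in cell 718 (Pomc+ HFD), 191 CPM in cell 671 (Ghost HFD), 164 CPM in cell 638 (Pomc+ HFD) and 104 CPM in cell 632 (Pomc+ CD). *Malat1* was counted in all 7 cells that had *Neat1*.

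The imprinted members are *Meg3*, expressed from the maternal copy of the domain that also holds *Dlk1*, *Rian* and *Mirg*, and *Kcnq1ot1*, an unspliced RNA of the paternal copy that silences neighbouring genes on its own chromosome. *Meg3* (ENSMUSG00000021268, chr12:109541001-109571726, plus strand) also reached down to 0 in every group, and its highest CPM was 7601 in Pomc+ CD (median 192), 6107 in Ghost CD (median 129), 24362 in Pomc+ HFD (median 59.7) and 5792 in Ghost HFD cells (median 252). The highest value, in cell 670, was the largest of any member, and the next for *Meg3* was 12391 CPM in cell 638 (Pomc+ HFD). The ranges of the 4 groups overlapped, with cells at 0 in each. *Gm26906* overlaps *Meg3* by 3096 bases on the opposite strand and is not among the genes of the count table. Reads from it cannot be told apart from *Meg3* without strand. *Kcnq1ot1* (ENSMUSG00000101609, chr7:143203458-143296549, minus strand) had a median of 0 in all groups and highest values of 557 CPM in Pomc+ CD, 1141 in Ghost CD, 976 in Pomc+ HFD and 731 in Ghost HFD cells. It lies within *Kcnq1* on the opposite strand, and the libraries do not mark strand, so reads from introns of *Kcnq1* would be counted as *Kcnq1ot1* and cannot be told apart from it. *Kcnq1* itself had 7 counts in 1 cell.

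*Snhg11* is a spliced host gene of small nucleolar RNAs that is abundant in neurons. It (ENSMUSG00000044349, chr2:158375638-158386145, plus strand) was 0 in some cells of each group and at most 16237 CPM in Pomc+ CD (median 54.7), 15185 in Ghost CD (median 427), 19637 in Pomc+ HFD (median 48.7) and 18840.3 in Ghost HFD cells (median 269.6). Its median was higher in Ghost than in Pomc+ cells on both diets, while its highest cells were alike in the 4 groups. With 105190 counts (104555 to 105828) it ranked 6 among all genes by summed counts. Its mean over all cells, 2411 CPM, was the largest part of the mean sum of the 7, 4918 CPM. GENCODE M21 types *Snhg11* as protein coding. As a snoRNA host it is also of a class that the list of cytoplasmic or snoRNA host noncoding RNAs below holds, so the sum is not purely one of nuclear RNAs. *Miat*, an RNA of neuronal nuclei that forms its own nuclear bodies (ENSMUSG00000097767, chr5:112213228-112229395, minus strand), was counted in 7 of 23 Pomc+ CD, 2 of 15 Ghost CD, 5 of 19 Pomc+ HFD and 5 of 19 Ghost HFD cells, with highest values of 753, 441, 523 and 436 CPM in that order. *Gm26953* overlaps it on the opposite strand and had 134 counts of its own in 5 cells. Reads from the stretch that *Gm26953* and *Miat* share cannot be told apart without strand.

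*Firre*, transcribed from the X chromosome and bound by the nuclear matrix protein hnRNP U (ENSMUSG00000085396, chrX:50555744-50635321, minus strand), was counted in 5 Pomc+ CD, 2 Ghost CD, 4 Pomc+ HFD and 4 Ghost HFD cells. Its highest values were 185, 528, 790 (789.8) and 174 CPM in that order. No other annotated gene overlaps it. Outside the cells with a count its level was 0, and each group held both kinds of cell.

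Ghost and Pomc+ cells were compared by the ratio of mean CPM. Ghost cells had lower means for all 7 members, at 0.814 times the Pomc+ mean for *Malat1*, 0.460 for *Neat1*, 0.390 for *Meg3*, 0.718 for *Snhg11*, 0.548 for *Miat*, 0.838 for *Kcnq1ot1* and 0.437 for *Firre*. The share of cells with a count was instead higher in Ghost than in Pomc+ cells for *Snhg11* (73.5% and 59.5%) and *Kcnq1ot1* (26.5% and 23.8%). It was lower in Ghost cells for the other members, as for *Meg3* (70.6% and 76.2%), and the intervals overlapped. Of the ratios of means, 3 (*Neat1*, *Meg3* and *Firre*) were past 2-fold lower, where 26% of 12265 genes were, and 0 were past 2-fold higher, where 16.4% were. A share of this size in a set of 7 is not a result about these RNAs. All directions held on the 3 scalings tried, but not all calls: without the every-cell genes *Firre* was 0.510 (0.5099) and *Miat* 0.444 took its place, and thinned to 40000 counts *Neat1* was 0.728. By pooled counts, in which deep cells weigh more, *Neat1* (0.492) kept its call, *Meg3* (0.563) and *Firre* (0.554) did not, *Malat1* was 0.905, *Snhg11* 0.985 and *Miat* 0.893, and *Kcnq1ot1* changed side at 1.02. The median gene was itself lower in Ghost cells, by a log2 ratio of -0.15 on CPM and -0.64 on the deposited normalized values, and relative to it *Meg3* stood at -1.21, *Firre* at -1.05 and *Neat1* at -0.97 on CPM.

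Single cells carried much of these ratios. The *Neat1* ratio was 0.109 without cell 671 (Ghost HFD) and 0.959 without cell 718 (Pomc+ HFD), and the *Firre* ratio was 0.219 without cell 709 (Ghost CD). Each of the 3 calls past 2-fold was ended by single Pomc+ cells, that of *Meg3* without cell 670 (0.517), that of *Firre* without cell 638 (0.503), 654 (0.585) or 670 (0.558), and that of *Neat1* also without cell 632 (0.532) or 638 (0.595). *Kcnq1ot1* changed side, to 1.14 without cell 670 and 1.01 without cell 638 (both Pomc+ HFD), and fell to 0.442 without cell 709. Medians gave another picture, at 0.788 for *Malat1*, 1.16 for *Meg3*, 5.24 for *Snhg11* and 2.28 for the sum of the 7, with the other members at 0 in both labels. Within runs of consecutive cell numbers, which each hold 1 diet but are not a labelled batch, *Malat1* was lower in Ghost cells in 3 of 7 runs and higher in 4 (0.0737 to 5.34), *Meg3* lower in 5 and higher in 2 (0.0664 to 1.86), and *Snhg11* lower in 3 and higher in 4 (0.0579 to 5.01). *Miat* was lower in 5 and higher in 2 of 7 runs, *Kcnq1ot1* and *Firre* lower in 4 and higher in 1 of 5, *Neat1* lower in 4 of 4 and the sum of the 7 lower in 5 and higher in 2 of 7. These tallies leave out runs whose Pomc+ mean was 0 while Ghost cells had counts, as for *Neat1* in run 4 (191 CPM), *Firre* in run 5 (21.5 CPM) and *Kcnq1ot1* in runs 5 (77.4 CPM) and 8 (20.9 CPM). Run 6 gives no ratio, since its only Pomc+ cell was at 0 for all members, while its 4 Ghost cells had means of 244 CPM for *Malat1*, 479 for *Meg3* and 355 for *Snhg11*. On the deposited normalized values the whole split leaned to lower calls in Ghost cells, with 38.3% of genes lower and 11.4% higher.

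On CD, Ghost cells had 0.967 times the Pomc+ mean of *Malat1*, 0.587 of *Meg3*, 0.875 of *Snhg11*, 0.460 of *Miat*, 1.73 of *Kcnq1ot1* and 1.36 of *Firre*. *Neat1* had no count in Ghost CD cells, and with that group set to 3 counts it was 12.2-fold lower by pooled counts. That value rests on cell 632 (Pomc+ CD), which held 68 of 80 counts, and without it was 1.95-fold, short of 2-fold. It is no lower limit across cells. *Neat1* was counted in 2 of 23 Pomc+ CD cells (interval 1.07 to 28.04%) and 0 of 15 Ghost CD cells (up to 21.8%), and these intervals overlap. The ratio of medians was 0.939 for *Malat1*, 0.672 for *Meg3* and, on the other side of 1, 7.81 for *Snhg11*. For the sum of the 7 it was 2.56, against 0.795 by means. By pooled counts the ratio was 0.596 for *Malat1*, 0.354 for *Meg3*, 0.539 for *Snhg11*, 0.402 for *Miat* and, on the other side of 1, 0.918 for *Kcnq1ot1* and 0.730 (0.7304) for *Firre*. *Neat1* and *Miat* made 2 members past 2-fold lower, where 33.3% of genes were, and 0 were higher, where 23.5% were. Without cell 709 the values were 0.570 for *Malat1*, 0.357 for *Meg3*, 0.435 for *Snhg11*, 0.413 for *Kcnq1ot1* and 0.203 for *Firre*. Without cell 632 *Snhg11* stood at 1.24 and *Kcnq1ot1* at 2.91, and *Miat* was 0.116 without cell 690 and fell short of 2-fold without cell 689 (0.724), 667 (0.533) or 630 (0.509). *Snhg11* was also 1.03 without cell 667 (Pomc+ CD). The *Malat1* ratio lay so near 1 that many single cells turned it, and it was 0.631 without cell 690 (Ghost CD).

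On HFD all 7 ratios were below 1, at 0.689 for *Malat1*, 0.457 for *Neat1*, 0.270 (0.2703) for *Meg3*, 0.589 for *Snhg11*, 0.622 for *Miat*, 0.406 for *Kcnq1ot1* and 0.187 for *Firre*. Of these, 4 were past 2-fold lower (*Neat1*, *Meg3*, *Kcnq1ot1* and *Firre*), where 34.4% of genes were, and 0 were higher, where 21.8% were. The ratio of medians went the other way for *Meg3* (4.21), *Snhg11* (5.54) and the sum of the 7 (2.22), and was 0.929 for *Malat1*. Pooled counts also went the other way for *Malat1* (1.32), *Snhg11* (1.23), *Miat* (1.27), *Kcnq1ot1* (1.105) and the sum of the 7 (1.04), and gave 0.675 for *Meg3*, 0.441 for *Neat1* and 0.428 for *Firre*. *Neat1* became 1.25 without cell 718 and 0.111 without cell 671. Without cell 638 *Neat1* was 0.620 (0.6195) and *Kcnq1ot1* 0.557, without cell 654 *Kcnq1ot1* was 0.5003, and without cell 670 *Meg3* was 0.459 and *Kcnq1ot1* 0.703. Without cell 637 (Ghost HFD), *Meg3* was 0.174, *Snhg11* 0.321, *Kcnq1ot1* 0.0698 and *Firre* 0.115, and *Miat* was 0.359 without cell 671.

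Diet was compared over both labels in the same way. HFD cells had 0.976 times the CD mean of *Malat1*, 6.42 times that of *Neat1*, 1.37 of *Meg3*, 1.35 of *Snhg11*, 1.001 of *Miat*, 1.10 of *Kcnq1ot1* and 2.01 of *Firre*. By medians the diet ratio was 2.07 for *Malat1*, past 2-fold and on the other side of 1, 1.09 for *Meg3* and 1.37 for *Snhg11*. By pooled counts *Firre* was 1.37 (1.366), short of 2-fold, and *Neat1* 4.13. *Neat1* and *Firre* were 2 members past 2-fold higher, where 22.9% of genes were, and 0 were lower, where 18.2% were. *Neat1* was 3.64 without cell 718 and 39.8 without cell 632, *Firre* 1.45 without cell 654, 1.53 without cell 670, 1.72 without cell 638 and 3.29 without cell 709, *Meg3* 0.919 without cell 670, and *Kcnq1ot1* 0.762 without cell 670 and 1.82 without cell 709. *Firre* lay so near 2-fold that leaving out any of many cells ended the call. *Kcnq1ot1* was also below 1 without cell 637 (0.853), 638 (0.876) or 654 (0.939), and the ratios of *Malat1* and *Miat* were turned by many single cells. *Malat1*, *Miat* and *Kcnq1ot1* changed side between scalings, with 1.61, 2.02 and 2.098 on the deposited normalized values. They were 0.838, 0.501 and 0.885 on CPM computed without the 7 genes counted in every cell. On the normalized values *Neat1* was 5.68, *Meg3* 2.54, *Snhg11* 2.43 and *Firre* 3.82, all past 2-fold higher, where 27.1% of all genes were. Without the every-cell genes *Firre* was 1.61, short of 2-fold, *Meg3* 1.07, *Snhg11* 1.13 and *Neat1* 7.64. Each run holds 1 diet, with 4 runs on CD and 4 on HFD. The median CPM of *Malat1* was 193, 70.8, 13.6 and 58.5 in the CD runs and 117, 1820 (1819.6), 21.2 and 90.3 in the HFD runs, so the runs of the diets overlapped, and how labels were mixed differed between runs.

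Among Pomc+ cells the diet ratio was 1.14 for *Malat1*, 5.33 for *Neat1*, 1.81 for *Meg3*, 1.62 for *Snhg11*, 0.971 for *Miat*, 2.01 for *Kcnq1ot1* and 3.87 for *Firre*. By medians it was 2.08 for *Malat1* and, on the other side of 1, 0.310 (0.3104) for *Meg3* and 0.890 (0.8902) for *Snhg11*. By pooled counts *Malat1* (0.628), *Meg3* (0.979), *Snhg11* (0.968) and *Kcnq1ot1* (0.931) were below 1, and *Firre* (1.77) was short of 2-fold. *Neat1*, *Kcnq1ot1* and *Firre* were 3 members past 2-fold higher, where 28.7% of genes were, and 0 were lower, where 22.7% were. *Neat1* was 1.95 without cell 718 and 32.5 without cell 632, *Meg3* 1.06 without cell 670, and *Kcnq1ot1* 1.16 without cell 670, 1.46 without cell 638, 1.63 without cell 654 and 3.37 without cell 632, and as near 2-fold as *Firre* above. The *Miat* ratio was turned by many single cells, and was 1.53 without cell 689, while *Malat1* was 0.886 without cell 638, 0.988 without cell 654 and 0.842 without cell 670. Among Ghost cells the ratio was 0.812 for *Malat1*, 0.833 for *Meg3*, 1.09 for *Snhg11*, 1.31 for *Miat*, 0.470 for *Kcnq1ot1* and 0.535 for *Firre*. *Neat1*, with Ghost CD cells set to 3 counts, was 21.4-fold higher by pooled counts. It was 11.3-fold higher without cell 643 and 11.9-fold without cell 671, the 2 cells with its counts. Across cells this is no lower limit, with 2 of 19 Ghost HFD cells counted (interval 1.30 to 33.1%) against 0 of 15 Ghost CD cells (up to 21.8%). The medians changed side for all 3 frequent members, at 2.06 for *Malat1*, 1.95 for *Meg3* and 0.631 for *Snhg11*. By pooled counts *Malat1* (1.39), *Meg3* (1.87), *Kcnq1ot1* (1.12) and *Firre* (1.04) changed side, and *Snhg11* (2.21) and *Miat* (2.55) were past 2-fold. *Neat1* was the 1 member past 2-fold higher, where 31.6% of genes were, and *Kcnq1ot1* the 1 member lower, where 28.3% were. Without cell 709, *Kcnq1ot1* was 1.98, *Firre* 3.57 and *Snhg11* 2.19, without cell 637 *Kcnq1ot1* was 0.0808 and *Snhg11* 0.594, and *Miat* was 5.20 without cell 690 and 0.757 without cell 671. *Malat1* was 1.25 (1.245) without cell 690 and 1.38 without cell 709, *Meg3* was 1.37 without cell 709, 1.02 without cell 690 and 0.537 without cell 637, *Snhg11* was 0.829 without cell 671, and *Firre* was 0.329 without cell 637. *Kcnq1ot1* was 0.548 without cell 690, short of 2-fold.

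Cells with more genes tended to hold more of these RNAs, as did most genes. Across 76 cells, Spearman's rho of CPM with genes detected was 0.29 for *Malat1*, 0.41 for *Neat1*, 0.24 for *Meg3*, 0.36 for *Snhg11*, 0.45 for *Miat*, 0.55 for *Kcnq1ot1* and 0.52 for *Firre*. Pearson's r was 0.37, 0.44, 0.30, 0.43, 0.53, 0.65 and 0.62 in the same order, and 0.30, 0.40, 0.23, 0.37, 0.46, 0.57 and 0.55 without cells 637 and 638. Among Pomc+ CD cells alone, rho was 0.14 for *Malat1* and 0.13 for *Meg3*. Their Pearson's r there was 0.23 and 0.12, and -0.083 and -0.19 without cells 667 and 630. For the other members r stayed above 0 without these cells, from 0.017 for *Miat* to 0.59 for *Kcnq1ot1*. The median rho of the members was 0.407 and that of 12265 genes 0.365, with quartiles of 0.268 and 0.456. The cells share depth in both values, and the members lay inside the range of other genes, with 19.3% of genes below *Meg3*, the lowest, 29.7% below *Malat1* and 93.5% below *Kcnq1ot1*.

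**Figure D2:**
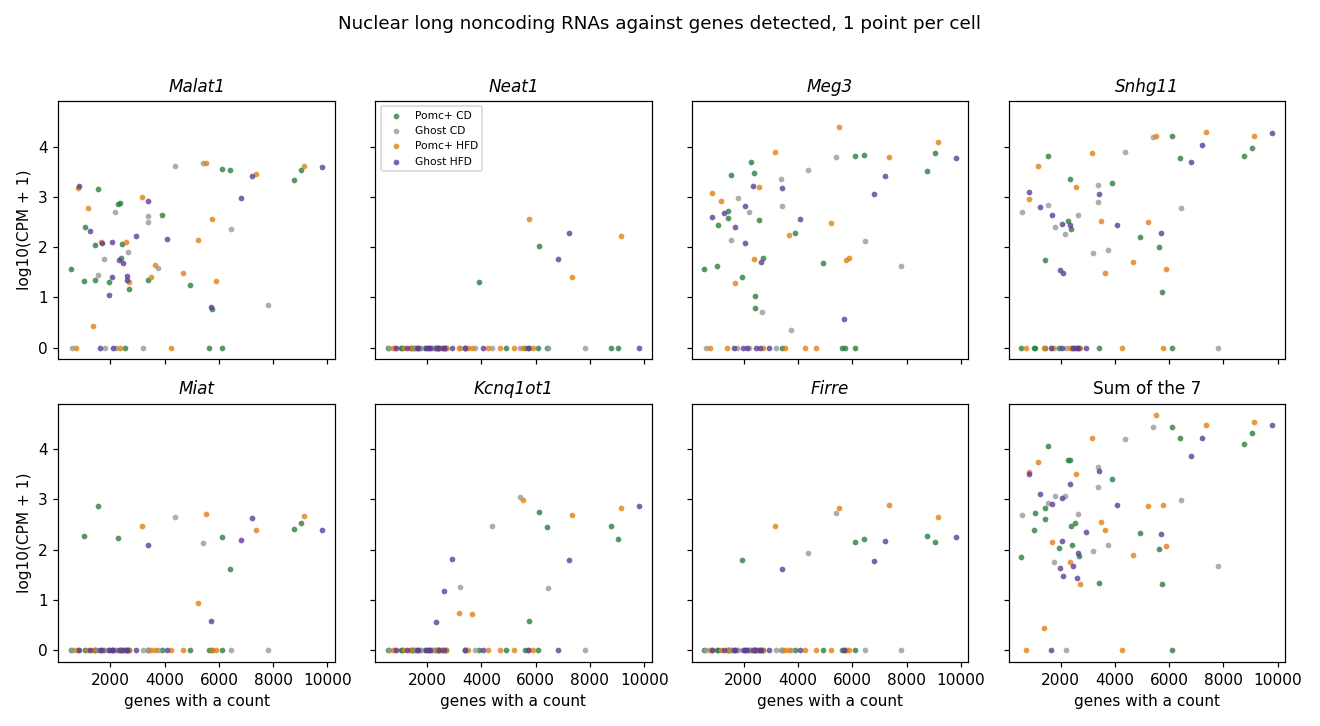
Level of each RNA, as log10(CPM + 1), against the number of genes detected in the same cell; each point is 1 of 76 cells, coloured by eGFP label and diet. Cells at 0 and cells with high levels occur across much of the range of genes detected.

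Single cells departed from that relation in both directions. At least 6 members were counted in 13 of 76 cells (17.1%, interval 9.43 to 27.5), with 4 of 23 Pomc+ CD, 2 of 15 Ghost CD, 4 of 19 Pomc+ HFD and 3 of 19 Ghost HFD cells. The fewest genes among these 13 cells were 3165, in cell 672 (Pomc+ HFD), above the median of 2670.5, so these cells went with the relation. Cell 670 reached the highest sum with 5524 genes from 114730 counts. No member was counted in 5 cells, among them cell 651 with 4250 genes from 1435547 counts and cell 665 with 6102 genes from 979318 counts. *Malat1* was low in some cells with many genes, at 5.89 CPM in cell 687 (7805 genes), 4.82 CPM in cell 631 (5744 genes) and 0 in cell 660 (5619 genes). Whether the nucleus entered the pipette is not among the labels of any cell and was not tested.

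**Figure D3:**
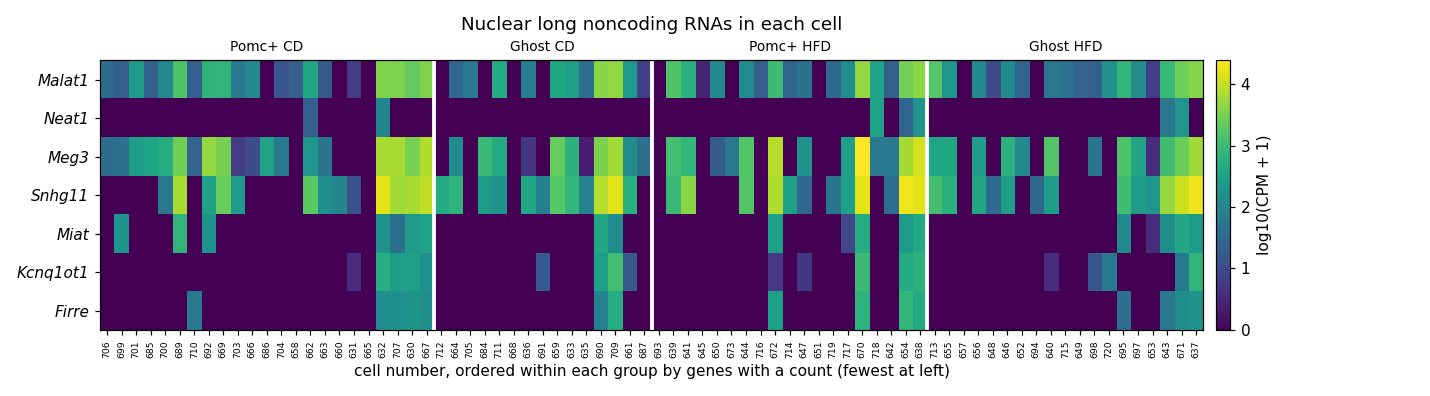
Levels of the 7 RNAs, as log10(CPM + 1), in each of the 76 cells. High *Malat1*, *Meg3* and *Snhg11* tend to fall in the same cells, and the rarer RNAs are found mostly among them.

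The members rose together across cells. Over 21 pairs, rho ran from 0.271 to 0.804 with a median of 0.625, and the pairs share the depth of each cell. *Malat1* had rho 0.80 with *Meg3* (53 cells with both) and 0.76 with *Snhg11*, and *Meg3* had 0.77 with *Snhg11*. The highest pair was *Miat* with *Firre*, and *Kcnq1ot1* had 0.73 with *Firre*. Of 5010 other genes counted in at least 20 cells, *Meg3* and *Snhg11* were the most similar to *Malat1*, followed by the unnamed gene ENSMUSG00000118642 at 0.732, while the median gene had 0.0887. The median gene had 0.0868 with *Meg3*, 0.143 with *Snhg11*, 0.171 with *Neat1*, 0.194 with *Miat*, 0.214 with *Firre* and 0.223 with *Kcnq1ot1*. *Ccnl2* was next for *Meg3* at 0.653. Among genes counted in at least 20 cells, those most similar to the rarer members were *Fry* (0.548), *Paxbp1* (0.543) and *Zfp644* (0.530, 0.5305) for *Neat1*, *Usp48* (0.746), *Carmil3* (0.717) and *Atxn2l* (0.707) for *Miat*, *Chuk* (0.691), *Mllt10* (0.679) and *Mcf2l* (0.676) for *Kcnq1ot1*, and *Tspoap1* (0.749), *Akap8* (0.745) and *Ccnl2* (0.737) for *Firre*. No other member was among these 3 for any of them, and members counted in fewer cells were not among the genes searched.

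Other gene lists were set beside *Malat1* by the same measure. Among other nuclear noncoding RNAs, *Snhg14* had rho 0.570 and *Rian* 0.403 with *Malat1*, and 2 of 3 genes were above the median gene. Of 12 paraspeckle and speckle protein genes 9 were above it, with *Srrm1* at 0.353, *Srrm2* at 0.345 and *Son* at 0.230, while *Hnrnpk*, the most abundant, was at -0.128. Of 7 cytoplasmic or snoRNA host noncoding RNAs 4 were above it, with *Gas5*, the most abundant, at the list median of 0.0966 and *Snhg8*, past 2-fold higher in Ghost cells (4.05), at 0.225. *Snhg5*, counted in 6 cells, was past 2-fold lower in Ghost cells (0.253). In this list 1 of 10 genes was thus higher, where 16.4% of all genes were, and 1 lower, where 26% were. In the *Meg3* domain 3 of 3 genes were above it, *Rian*, *Begain* (0.283) and *Dlk1* (0.145), the most abundant. In the *Kcnq1ot1* domain 1 of 2 genes was, *Cd81*, the most abundant (0.134), and *Nap1l4* was not (-0.100, -0.1001). None of 11 abundant cytoplasmic mRNAs was above it (median -0.266), with *Fth1*, the most abundant, at -0.157, *Gapdh* at -0.321 and *Eef1a1* at -0.256, and none of 13 mitochondrial genes was (median -0.0868). Beside *Kcnq1ot1* itself, 0 of 2 genes of its domain were above the median gene (*Cd81* 0.158, *Nap1l4* 0.0963). Beside *Meg3* itself, 3 of 3 genes of its domain were. *Srrm1*, *Srrm2*, *Son*, *Nap1l4*, *Gapdh* and *Eef1a1* were chosen as examples after their values were seen. CPM are shares of one total, so a rise in some genes lowers others, and this part of the negative values was not tested.

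Markers of other cell types were present. Of 7 astrocyte genes 4 were past 2-fold lower in Ghost cells, where 26% of all genes were (*Aldoc*, the most abundant, at 0.343 and *Gja1* at 0.0732), and their summed CPM had medians of 445, 212, 706 and 155 in Pomc+ CD, Ghost CD, Pomc+ HFD and Ghost HFD cells. All 8 microglia genes were past 2-fold higher on HFD, where 22.9% of all genes were, with *Ctss*, the most abundant, at 7.04 and *C1qb* at 5.76, and summed medians of 17.2, 3.98, 279 and 486 in that order. Some of them rest on few cells, with *Csf1r* and *Tmem119* counted in 6 cells each and *P2ry12* in 7, against 28 for *Ctss*. A single cell held 5994 CPM of *Tmem119*. The marker ratios were not checked by leaving out cells. Oligodendrocyte genes, led by *Mbp*, had summed medians of 153, 263, 261 and 310.1, and among tanycyte and ependymal genes *Col23a1* had 29 counts in 6 cells, *Ccdc153* and *Tmem212* had a count in 1 cell each and *Rax* had 0 counts. Across cells the summed markers had rho of -0.02 (astrocytes), -0.04 (oligodendrocytes) and 0.06 (microglia) with *Malat1*, which share depth, and 0 of 5 astrocyte and 1 of 4 microglia genes lay above the median gene. With *Neat1*, 3 of 5 astrocyte genes lay above its median gene (*Slc1a3* at 0.374, *Slc1a2* at 0.207 and *Aldoc* at 0.191). With *Meg3* and *Miat* 2 of 5 did, and with *Snhg11*, *Kcnq1ot1* and *Firre* 0 of 5. For each of these 6 members 0 of 4 microglia genes did. The part of such material in the levels of *Malat1* and the other members was not tested.

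Sequence gave a further description. The longest run of A in the *Malat1* transcript, 12 bases, lies just before the small RNA cut from its end, and 87.6% of 12122 genes had a shorter longest run. The kit primes on A stretches, and priming at this run was not tested. The longest runs were 41 bases in *Kcnq1ot1*, 16 in *Meg3*, 8 in *Snhg11*, 7 in *Neat1* and *Firre* and 4 in *Miat*. The 72 bases below are chr19:5795958-5796029 (minus strand, GRCm38), with the run in capitals.

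Malat1 A run: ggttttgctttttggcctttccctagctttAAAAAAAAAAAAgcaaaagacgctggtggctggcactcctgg

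Promoters of the 3 most often counted members were read for TGACG, which reads CGTCA on the other strand and is the core of the cAMP response element TGACGTCA. *Malat1* held TGACG or CGTCA at 3 places, *Meg3* held the full TGACGTCA in the window of its first start and no match in that of a second (chr12:109545148-109545447), and *Snhg11* held none. TGACG on either strand was found in 20.8% and TGACGTCA in 1.79% of 32851 promoter windows, and a match is no evidence of binding. Windows run from 250 bases before to 50 after the start, at chr19:5802623-5802922 (minus strand), chr12:109540746-109541045 (plus) and chr2:158375463-158375762 (plus), GRCm38.p6.

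Malat1 promoter: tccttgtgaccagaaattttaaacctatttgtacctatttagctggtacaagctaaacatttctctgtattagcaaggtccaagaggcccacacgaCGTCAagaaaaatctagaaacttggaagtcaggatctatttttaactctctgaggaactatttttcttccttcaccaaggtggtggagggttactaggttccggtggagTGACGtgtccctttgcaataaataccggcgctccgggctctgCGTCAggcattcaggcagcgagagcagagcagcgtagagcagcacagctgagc

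Meg3 promoter: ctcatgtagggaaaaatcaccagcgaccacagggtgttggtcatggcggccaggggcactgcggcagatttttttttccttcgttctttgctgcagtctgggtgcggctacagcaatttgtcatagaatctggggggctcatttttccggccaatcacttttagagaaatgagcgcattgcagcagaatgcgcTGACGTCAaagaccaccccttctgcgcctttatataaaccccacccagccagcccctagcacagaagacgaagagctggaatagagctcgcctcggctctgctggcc

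Snhg11 promoter: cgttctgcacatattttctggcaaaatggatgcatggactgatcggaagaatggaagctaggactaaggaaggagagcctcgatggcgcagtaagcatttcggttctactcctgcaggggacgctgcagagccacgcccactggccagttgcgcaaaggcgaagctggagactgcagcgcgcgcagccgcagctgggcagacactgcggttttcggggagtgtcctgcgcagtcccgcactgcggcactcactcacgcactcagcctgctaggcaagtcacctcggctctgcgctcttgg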

How the data were processed

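RNA of single patched neurons was sequenced by the submitters, whose processing notes name cutadapt 2.10 for trimming, STAR 2.7.5a for alignment to GRCm38/mm10 and DESeq2 for normalization; the program that made each count is not given. The deposited count table holds reads per gene and cell for 56980 genes, which are reads and not molecules, and the kit does not mark strand. The deposited normalized signal was used as an alternative scaling only. From the counts, CPM were computed with each cell's total count as the divisor, of which the 7 genes counted in every cell held 43.7% over all cells and the unnamed ENSMUSG00000119584 alone 35.8%. A gene entered the background when 3 or more cells had 5 or more counts of it (12265 genes). Ratios are of mean CPM unless medians or pooled counts (summed counts over summed totals) are named, past 2-fold is called higher or lower, and a group at 0 was set to 3 counts over its summed total and compared with the other group's summed counts over its summed total, not with its mean CPM. All per-sample columns were used (0 unused).

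The members and lists were chosen with earlier results of these data known. Named genes are the 7 members in full, the fixed lists by counts and median with up to 4 examples, for which the design named the most abundant gene and those past 2-fold, the 3 genes most similar to each member, and *Pomc* and *Cartpt* as a check of the labels; not every list has all its examples named, and a gene outside this rule was chosen after its values were seen. Symbols were matched for 52073 of 56980 IDs with GENCODE M21 (GRCm38), which also gave positions; promoter sequences are from RefSeq GRCm38.p6. *Mir124-1hg*, *Norad* and *Oip5os1* matched 0 IDs and *Aldoa* 2, and these were not used. The scripts were tested on simulated data and run with Python 3.11.15, numpy 2.4.6, pandas 2.3.3, scipy 1.17.1 and matplotlib 3.10.9.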

Additional observations from a re-analysis of the deposited data

How the results depend on the processing

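No paired analysis was possible because no label links a cell to a mouse. Members past 2-fold in Ghost against Pomc+ cells (3, all lower) were 1 on pooled counts (added), *Neat1*, 1 on medians, *Snhg11*, which was higher and not among the 3, and, among alternatives added after the data were seen, 6 on normalized values of HFD cells; leaving out 1 cell gave 1 to 4, and 2 to 7 on normalized values. Members past 2-fold by diet (2) were 6 on normalized values (6 among Pomc+ cells), 1 on pooled counts (1 among Pomc+ cells), 1 without the genes counted in every cell, 1 after thinning and 1 on medians, *Malat1*, which was not among the 2. Leaving out 1 cell gave 1 to 2, and 3 to 6 on normalized values. Over both labels, 27.1% of all genes were past 2-fold higher by diet on normalized values and 17.5% were lower. The summed members in Ghost over Pomc+ cells (0.605) were 0.458 on normalized values, 0.628 without the every-cell genes, 0.587 with the cell filter, 0.598 thinned, 0.795 on CD (0.426 without cell 709, 1.02 without cell 632) and 0.468 on HFD (0.276 without cell 637), and reversed on medians, 2.28; leaving out 1 cell gave 0.473 to 0.728, and normalized values 0.265 to 0.584, 0.631 on CD and 0.354 on HFD; pooled counts gave 0.832, 0.495 on CD and, reversed, 1.04 on HFD. The summed members in HFD over CD cells (1.29) were 2.33 on normalized values, 1.05 without the every-cell genes, 1.29 with the cell filter, 1.23 thinned, 1.10 on medians and 1.62 among Pomc+ cells, and reversed among Ghost cells, 0.954, a value that 11 single cells turn (1.78 without cell 709, 1.25 without cell 690) and that is 0.563 without cell 637; leaving out 1 cell gave 1.03 to 1.52, and normalized values 1.81 to 2.80, 2.94 among Pomc+ and 1.65 among Ghost cells; pooled counts gave 1.12, 1.94 among Ghost and, reversed, 0.924 among Pomc+ cells. The median rho with genes detected (0.407) was 0.412 on normalized values, 0.407 without the every-cell genes, 0.412 with the cell filter, 0.397 thinned, 0.261 in Pomc+ CD, 0.407 in Ghost CD, 0.514 in Pomc+ HFD and 0.471 in Ghost HFD cells, and 0.369 to 0.423 without 1 cell. With at least 5 counts asked for, *Malat1* was found in 67.1% of all and 60.9% of Pomc+ CD cells. For members past 2-fold, single ratios that changed side were *Meg3* 1.16 on medians, 1.69 in run 7 and 1.86 in run 8, and *Firre* 1.36 on CD, 4.72 in run 7 and 0.535 for diet in Ghost cells. Runs with a Pomc+ mean of 0 give no ratio and are not listed. Members short of 2-fold changed side as well, for label *Snhg11* at 5.24 on medians and 1.39, 1.17, 5.01 and 3.03 in runs 4, 5, 7 and 8, *Malat1* at 1.37, 1.90, 2.66 and 5.34 in the same runs, *Miat* at 1.59 in run 4 and 1.21 in run 7, and *Kcnq1ot1* at 1.73 on CD and 8.19 in run 7, and for diet *Kcnq1ot1* at 0.470 in Ghost cells and *Malat1* at 2.07 on medians and 1.14 in Pomc+ cells; scalings that turned diet ratios are given above. *Meg3* (0.833) changed side for diet in Ghost cells and *Miat* (0.971) in Pomc+ cells, and thinning turned *Miat* (0.878) and *Kcnq1ot1* (0.785). The cause was not tested. Thinning left out 8 cells, and the cell filter left out cells 639, 693, 706, 712 and 713.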
